A study of Mus musculus with 2 samples.

Results

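The cells described here were fibroblasts of inflamed mouse ear skin selected on few or no reads of Scara5, a receptor for ferritin, and on more reads of Saa3, Lcn2 and Hp together than in the median fibroblast. They are called Saa3-high fibroblasts below. A cell barcode was taken as a fibroblast if it had at least 50 reads per 1000000 reads of the barcode (CPM) of Pdgfra, at least 5000 CPM of Col1a1 and Col3a1 together, less than 50 CPM of Ptprc, less than 100 CPM of Chad and Cilp2 together and less than 150 CPM of 6 cell division genes together. Of 8953 barcodes, 8359 were within the limits of quality and 1752 of these were fibroblasts. The summed CPM of Hp, Lcn2 and Saa3, called the score, had a median of 64.5 CPM over the fibroblasts. The 694 fibroblasts with less than 50 CPM of Scara5 and a score over this median were the Saa3-high fibroblasts, so these 4 genes chose the cells. The other 605 fibroblasts with less than 50 CPM of Scara5 are called low-score fibroblasts, and 453 fibroblasts with 50 CPM or more were Scara5-positive.

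The study induced IgE-dependent chronic allergic inflammation in wild-type (WT) BALB/c mice and in Ccr2-/- mice, young adult males, with 300 µg of IgE against the hapten TNP, followed by 10 µg of TNP-OVA injected into the ear skin. Ears were taken 3 or 5 days after the challenge, and all 4 groups (each genotype on each day) received both agents. Ccr2-/- mice lack CCR2, the chemokine receptor that monocytes use to leave the bone marrow, in all their cells. Each group was 1 pool of ear cells marked with its own hashtag antibody, the number of mice in a pool was not given in the sources used here, and the pools were sequenced together after 10000 labelled cells had been loaded on a microwell system.

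Saa3, Lcn2 and Hp belong to the acute-phase response, in which interleukins 1 and 6 and tumour necrosis factor act through NF-kB, STAT3 and C/EBP factors to raise secreted defence proteins. Saa3 is the serum amyloid A that is made outside the liver, Lcn2 (lipocalin 2) binds the iron carriers of bacteria, and Hp (haptoglobin) binds free haemoglobin. Fibroblasts of inflamed skin are known to make such proteins together with chemokines that draw neutrophils, monocytes and eosinophils.

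The upstream sequences shown are those of Saa3 and Lcn2, the 2 genes of the score that reached 50 CPM in the most cells. They are RefSeq sequences on GRCm38.p6, from 250 to 61 bases before the annotated start, 5′ to 3′ on the strand of the gene, and capitals mark matches to the C/EBP motif TTGCNNAA on either strand. Saa3 is at chr7:46715737-46715926 (minus strand), and Lcn2 at chr2:32387800-32387989 (minus strand), a stretch that overlaps an exon of another annotated Lcn2 transcript.
Saa3: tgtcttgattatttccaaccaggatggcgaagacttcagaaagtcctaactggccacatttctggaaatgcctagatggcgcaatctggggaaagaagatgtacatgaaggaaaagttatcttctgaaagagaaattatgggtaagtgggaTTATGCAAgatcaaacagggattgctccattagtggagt
Lcn2: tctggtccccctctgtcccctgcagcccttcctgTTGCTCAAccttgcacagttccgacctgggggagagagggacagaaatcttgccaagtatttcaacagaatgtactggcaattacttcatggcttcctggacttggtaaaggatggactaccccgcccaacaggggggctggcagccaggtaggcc
The motif was found once in the 250 bases before the start of each of these genes, and in 9.56% of 32851 promoters of that length. The NF-kB consensus, searched by name, was in neither, nor was either motif in the promoters of Ccl19 and Aldh1a2, and 3.90% of all promoters held the NF-kB consensus. No promoter of Hp was in the set used, so Hp was not searched.

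Ccr2, the gene removed in the knockout mice, summed over the barcodes of a pool within the quality limits, reached 347 and 341 CPM in WT against 13.3 and 11.9 in Ccr2-/- (days 3 and 5). In the Saa3-high fibroblasts it had 1.28 to 2.15 CPM in the 4 pools, so the labels could be checked in other cells only. In the hashtag library, 8696 of the 8953 barcodes had an entry. The hashtags gave 8036 barcodes to a pool. The Saa3-high fibroblasts comprised 94 cells of WT day 3, 59 of WT day 5, 246 of Ccr2-/- day 3, 206 of Ccr2-/- day 5 and 89 without a pool. Their median depth in the pools was 99265, 73750, 136887 and 146153 reads in that order, so the WT values rest on fewer and shallower cells. Barcodes with several hashtags were left out of the pools and no doublet caller was run.

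The score spanned a wide range and had no gap at the limit. Its median in the Saa3-high fibroblasts was 219 CPM in WT day 3, 248 CPM in WT day 5, 546 CPM in Ccr2-/- day 3 and 1245 CPM in Ccr2-/- day 5, and the highest cell had 142234 CPM. The lowest cells inside the limit had 64.5 and 64.7 CPM, and the highest outside had 64.4 and 64.1 CPM. Of the 1299 fibroblasts with less than 50 CPM of Scara5, 502 were within 2-fold of the limit. Blood endothelium, gated on Pecam1 and Cdh5 and not known for Saa3, had 47.0 to 61.1 CPM of Saa3 in summed reads of the 4 pools. Its median cell had 24.6 to 39.6 CPM, beside a limit of 64.5 CPM per cell. A score over 1000 CPM was reached by 25 of 94 cells (26.6%), 19 of 59 (32.2%), 101 of 246 (41.1%) and 110 of 206 (53.4%) in the order of the pools. The class is therefore a range of a score rather than a separate population.

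**Figure D1:**
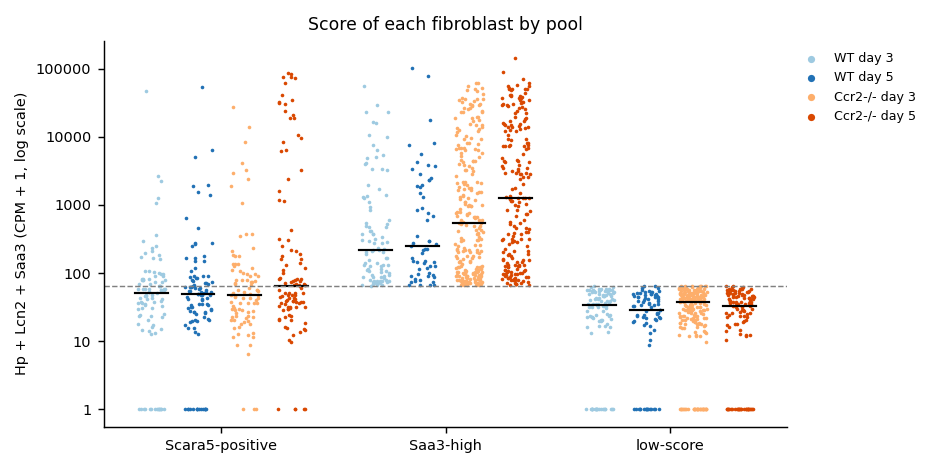
The summed CPM of Hp, Lcn2 and Saa3 plus 1, on a log axis, in each fibroblast of the 4 pools, with Scara5-positive, Saa3-high and low-score fibroblasts from left to right. Each point is a cell, black bars are medians and the dashed line is the limit of 64.5 CPM, from which the Saa3-high fibroblasts extend upward without a gap.

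Saa3 made up most of the score. It accounted for 94.6% of the score summed over all 694 cells, beside 3.29% for Hp and 2.14% for Lcn2. At least 50 CPM was reached for Saa3 in 591 cells, for Lcn2 in 215 and for Hp in 128, and for all 3 genes in 42 (6.05%), while 384 cells had this level of Saa3 alone. Hp was the gene whose spread among pools was widest, with at least 50 CPM in 7.45% and 18.6% of the WT cells and 12.2% and 34.0% of the Ccr2-/- cells at days 3 and 5.

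The levels of the 3 genes are descriptions, because the genes chose the cells. Saa3 had 3646 CPM (95% Poisson interval 3611 to 3682) in WT day 3, 2540 (2499 to 2581) in WT day 5, 7162 (7135 to 7190) in Ccr2-/- day 3 and 11550 (11512 to 11587) in Ccr2-/- day 5. Both Ccr2-/- pools lay above both WT pools. These intervals, like all others here, cover counting error only, since PCR copies of a molecule are counted as separate reads. A single cell held 43.7% of the Saa3 reads in WT day 3 and 47.2% in WT day 5, but 6.35% and 6.02% in Ccr2-/-. Hp had 88.1, 55.5, 166 and 649 CPM in the order of the pools, and a single cell held 65.7% of its reads in WT day 3. Lcn2 had 121, 101, 187 and 148 CPM, which spanned less than 2-fold.

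Some Scara5-positive fibroblasts also carried these transcripts. Saa3 had 1893, 1312, 823 and 10092 CPM in them, pool by pool, but 42.1 to 46.1 CPM in the median cell. The median cell of blood endothelium had 24.6 to 39.6 CPM. A score over 1000 CPM was found in 5, 7, 9 and 25 of the Scara5-positive cells. Their score exceeded the limit in 34 of 97, 33 of 103, 38 of 92 and 54 of 108 cells. In the low-score fibroblasts Saa3 had 29.3 to 33.0 CPM. The Saa3-high fibroblasts were 5.83%, 5.41%, 10.8% and 8.17% of the barcodes within the quality limits and held 36.5%, 36.3%, 50.6% and 44.1% of the Saa3 reads of their pools.

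Neutrophils are a known source of Lcn2 and Hp, and barcodes gated on S100a8 and S100a9 had 303 to 1026 CPM of Lcn2 and 605 to 949 CPM of Hp, with 4 such barcodes in WT day 5. The 5 neutrophil markers together had 37.7, 37.3, 37.9 and 64.5 CPM in the Saa3-high fibroblasts, where S100a8 had 5.88 to 17.8 CPM and Retnlg 1.09 to 4.37 CPM. The 5 markers had 28.7 to 35.9 CPM in Scara5-positive and 32.6 to 130 CPM in low-score fibroblasts. At 20000 reads per cell, a Lcn2 read was found in 37.2%, 15.7%, 43.1% and 36.7% of the Saa3-high fibroblasts, in 1.39% to 6.60% of low-score fibroblasts and in 0% to 10% of barcodes gated on Cd3e and Cd3g as T cells. The 10% was 1 of 10 barcodes in WT day 5. Blood endothelium had a Lcn2 read in 15.2% to 30.1% of its barcodes, at 68.0 to 133 CPM, so that Lcn2 was not particular to fibroblasts.

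The background of Saa3 was high. At the same depth a Saa3 read was found in 81.4% to 92.2% of the Saa3-high fibroblasts and in 35.8% to 56.0% of low-score fibroblasts, but also in 53.8% to 70.0% of T cell barcodes and 48.4% to 58.8% of endothelial barcodes. The share in low-score fibroblasts was limited by the score that chose them. Median depths before thinning were 12856 to 21614 reads in the T cell gate and 18983 to 35921 in the endothelial gate.

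Ccl19, a chemokine of lymphoid stroma, and Aldh1a2, a retinoic acid synthesising enzyme, are markers given for these cells that took no part in choosing them. Ccl19 had 320 CPM at day 3 and 63.0 at day 5 in WT, and 411 at day 3 and 123 at day 5 in Ccr2-/-. Low-score fibroblasts had 244, 72.9, 235 and 111 CPM, so that Ccl19 was within 2-fold of the Saa3-high level in all 4 pools and higher in WT day 5. Scara5-positive fibroblasts had 36.3 to 53.5 CPM. Aldh1a2 had 57.5, 27.1, 111 and 117 CPM, beside 13.3, 32.9, 85.9 and 79.9 CPM in low-score and 8.48, 32.4, 57.9 and 122 CPM in Scara5-positive fibroblasts. Ccl19 was thus higher than in Scara5-positive fibroblasts in all 4 pools, but by less than 2-fold in WT day 5 (63.0 against 36.3 CPM). It did not set the cells apart from low-score ones. Aldh1a2 set them apart from neither in all pools, so that the label rests on the genes of its own rule.

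**Figure D2:**
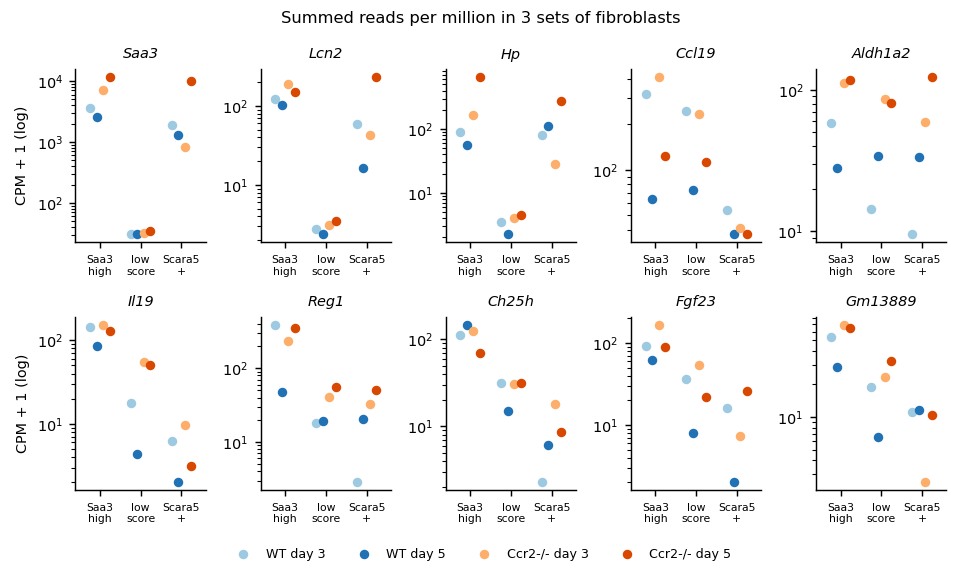
CPM plus 1 of reads summed over the cells of a pool, on a log axis, in Saa3-high, low-score and Scara5-positive fibroblasts, for the 5 markers (top) and 5 further genes (bottom). Each point is 1 pool. The bottom genes were at least 2-fold higher in Saa3-high than in low-score fibroblasts in all 4 pools, while Ccl19 and Aldh1a2 overlapped.

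Apart from the genes of the rule, few transcripts separated Saa3-high from low-score fibroblasts. With at least 20 CPM in the higher class, 5739 genes were compared, and 8 (0.139%) were at least 2-fold higher in all 4 pools and 2 (0.0348%) at least 2-fold lower. The 8 were Saa3, Lcn2, Hp, Il19, Reg1, Ch25h, Fgf23 and Gm13889, and the 2 were Mgp and Galnt15. Fgf23, Gm13889, Mgp and Galnt15 were named after their values were seen. No test was made, because the score had divided the cells.

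Il19, a cytokine of the interleukin 10 family, had 144, 83.4, 152 and 127 CPM in the Saa3-high fibroblasts and 16.6, 3.41, 54.2 and 49.6 CPM in the low-score ones. Reg1, a secreted lectin of the regenerating family, had 385, 46.1, 235 and 354 CPM against 17.3 to 54.7 CPM. Ch25h, which makes 25-hydroxycholesterol, had 110, 146, 125 and 69.1 CPM against 14.04 to 30.8 CPM. Few cells carried these transcripts in WT: in WT day 5 a read of Il19 or Ch25h was found in 9 of 59 cells each, and single cells held 47.6% of the Il19 and 43.8% of the Reg1 reads. Mgp, the matrix Gla protein that inhibits calcification, was lower, with 69.2 to 155 CPM against 329 to 371 CPM.

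Of the other transcripts compared along the score, Cxcl5, Timp1 and Gsn kept their order in each pool. Only the transcripts named here were compared, and how many of all genes kept such an order was not computed. In cells with a score over 1000 CPM, Cxcl5 had 1302, 1138, 3325 and 3362 CPM in the order of the pools. It had 876, 910, 2119 and 2069 CPM in Saa3-high cells up to 1000 CPM, and 350, 185, 1359 and 1717 CPM in low-score fibroblasts. The range over 1000 CPM had 25 and 19 cells in WT. A single cell held 20.7% and 22.7% of the Cxcl5 reads of all Saa3-high cells of WT day 3 and day 5. Timp1, an inhibitor of matrix metalloproteinases, had the same order in each pool, from 983 to 2571 CPM in low-score cells to 2945 to 5336 CPM over 1000. Gsn, the actin-severing protein gelsolin, had the opposite order, from 3615 to 6330 CPM in low-score cells to 1395 to 3074 CPM over 1000. Tnc, Il33, Cxcl1, Il4ra, Ccl19, Aldh1a2, Pi16, Cxcl12 and Col12a1, also compared along the score, did not keep the same order in each pool. From low-score cells to those over 1000, Tnc had 1476, 792 and 2136 CPM in WT day 3. Il33 had 189, 273 and 206 CPM in WT day 5.

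The distance to Scara5-positive fibroblasts was larger. Of 5826 genes, 59 (1.01%) were at least 2-fold higher and 78 (1.34%) at least 2-fold lower in the Saa3-high fibroblasts in all 4 pools. The highest by mean log2 ratio were Il19 (4.81), Reg3g (4.05), Ch25h (3.997), Csf2rb (3.65) and Reg1 (3.47). Reg3g is an antibacterial lectin, with 470, 195, 419 and 482 CPM, and Csf2rb the shared receptor chain of interleukins 3 and 5 and GM-CSF, with 187, 31.9, 276 and 147 CPM. In WT day 5 a read of each was found in 14 cells, and a single cell held 60.6% of the Reg3g and 65.8% of the Csf2rb reads. The lowest were Scara5 itself, a gene of the rule, and then Coch (-4.30), Vit (-3.19), Gdf10 (-3.09) and Ebf2 (-2.99), of which Coch and Vit encode matrix proteins, Gdf10 a growth factor of the BMP family and Ebf2 a transcription factor.

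The median log2 ratio to Scara5-positive fibroblasts was 1.50 over 4 monocyte and eosinophil chemokines and 1.26 over 8 type 2 genes, beside 0.07 over all genes compared. Over 24 matrix and remodelling genes the median was -0.24, with 6 at least 2-fold higher and 2 lower. Among the 6 higher, the matrix protein tenascin C (Tnc) had 1185 to 2996 CPM against 86.9 to 434 and Timp1 2243 to 4149 against 354 to 1051. Low-score fibroblasts had 1161 to 1476 CPM of Tnc and 983 to 2571 CPM of Timp1. In the type 2 list, Il13ra2, the decoy receptor of interleukin 13, had 177 to 349 CPM against 12.3 to 36.5. Low-score fibroblasts had 41.4 to 241 CPM of Il13ra2, and 309 to 2630 CPM of the chemokine Ccl11 beside 998 to 2866 in Saa3-high ones. Each of these low-score ranges overlapped that of the Saa3-high fibroblasts. The median ratio to Scara5-positive fibroblasts was -1.11 over 14 adventitial-type genes. Of these, 6 were at least 2-fold lower and 0 of 14 had a mean ratio above 0. It was -0.38 over 9 complement genes. These sets of cells share the score or Scara5 with their definition, and these values are given without a test.

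The cells made up a larger share of the fibroblasts in Ccr2-/- than in WT. The share was 32.1% in WT day 3 (94 of 293, exact binomial 95% interval 26.8 to 37.8), 24.5% in WT day 5 (59 of 241, 19.2 to 30.4), 44.5% in Ccr2-/- day 3 (246 of 553, 40.3 to 48.7) and 47.2% in Ccr2-/- day 5 (206 of 436, 42.5 to 52.1). Both Ccr2-/- values exceeded both WT values, by 17.6 points on average, or 10.2 with each pool's own median as the limit. With 2 pools against 2, an exact permutation test (two-sided) gave p = 0.33, the smallest p it allows. Scara5-positive cells were 33.1% and 42.7% of the WT and 16.6% and 24.8% of the Ccr2-/- fibroblasts. Among fibroblasts without Scara5 alone, the Saa3-high share was 48.0% and 42.8% in WT and 53.4% and 62.8% in Ccr2-/-, and the day 3 intervals (40.8 to 55.2 and 48.7 to 58.0) overlapped. Median depth was also higher in the Ccr2-/- cells; thinned to 20000 reads per barcode, the shares were 27.6%, 22.2%, 41.8% and 45.2%.

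Cxcl5, a ligand of the neutrophil receptor CXCR2, was the gene that differed between genotypes by test. Over both days, edgeR's quasi-likelihood test with day as a covariate called 1 of 16545 genes (0.00604%) at an adjusted p under 0.05. Cxcl5 had 1001 CPM in WT day 3, 981 in WT day 5, 2694 in Ccr2-/- day 3 and 2831 in Ccr2-/- day 5. Its log2 ratio was 1.50 (SE 0.10, edgeR adjusted p = 0.0283), or 2.69-fold at day 3 and 2.89-fold at day 5. A single cell held 20.7% and 22.7% of the WT reads. The call was lost where barcodes were assigned at a hashtag ratio of 10 (adjusted p = 0.61), with the upper quartile of the score as the limit (0.22), with each pool's own median (0.15) and without the gate on Scara5 (0.27), where its log2 ratio was 2.01, 1.57, 1.69 and 1.62. The fit has 1 residual degree of freedom. There was 1 pool per genotype and day, so its p-values rest on how alike the ratios of the 2 days were, with information shared over genes. They do not measure the spread of replicate pools. An unadjusted p under 0.05 was found for 1406 genes. The Cxcl5 difference was not particular to the Saa3-high fibroblasts. Low-score fibroblasts had 350 and 185 CPM of Cxcl5 in WT against 1359 and 1717 in Ccr2-/- at days 3 and 5. Scara5-positive fibroblasts had 283 and 147 against 266 and 493 CPM, and neither set was tested.

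Beyond this call, genes were named by size. Of 6202 genes with at least 20 CPM in both pools of the higher genotype, 13 (0.21%) were at least 2-fold higher and 30 (0.484%) at least 2-fold lower in Ccr2-/- on both days, on the log2(CPM + 1) scale. The balance of directions depended on single cells: without the cell with most reads of each gene, 36 were higher and 16 lower, and by the mean of cells 47 and 45. The median ratio of all genes was -0.01 at day 3 and 0.03 at day 5, and 48.1% and 53.2% of them were above 0. The share of all genes on the same side on both days was not computed, so the list counts below have none beside them. With 1 pool per genotype and day these differences have no replicate check, and besides Cxcl5 0 of these genes passed the edgeR test.

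The 10 that were higher by most were Chil1, Sfrp4, Atrnl1, Fabp4, Serpina3g, Car4, Gm18787, Cxcl5, Tnfrsf21 and Septin4. Sfrp4, a secreted modulator of Wnt signalling, had, at days 3 and 5, 23.5 and 31.6 CPM in WT against 86.0 and 133 CPM in Ccr2-/-. A single cell held 71.8% of the Sfrp4 reads of WT day 3, and its mean log2 ratio of 1.94 was 0.36 without the gate on Scara5. The protease inhibitor Serpina3g had 50.1 and 33.1 CPM in WT against 150 and 119 in Ccr2-/-, and its close relative Serpina3i 65.9, 37.5, 163 and 85.7 CPM. These copies may share reads. Car4, a carbonic anhydrase of the cell surface, had 86.4 and 114 CPM in WT against 207 and 408 in Ccr2-/-. Atrnl1 had 12.1, 14.1, 60.0 and 42.8 CPM. For Chil1, a chitinase-like protein, and Fabp4, the fatty acid binding protein of adipocytes, single cells held 89.7% and 61.6% of the reads of Ccr2-/- day 3.

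The 10 that were lower by most were Mx2, Ifit1, Wnt11, Penk, Abca8a, Ret, Ppl, Timp3, Abcc9 and Aldh3a1. Mx2 and Ifit1 are induced by interferon, and Ifit1 had 76.2 and 64.2 CPM in WT against 21.6 and 13.9 in Ccr2-/-, with reads in 8 cells of WT day 5 and 53.9% of them in 1 cell. Timp3, an inhibitor of metalloproteinases held in the matrix, had 202 and 225 CPM in WT against 78.8 and 66.6 in Ccr2-/-. Penk, the precursor of enkephalins, had 112 and 84.2 against 36.7 and 17.6 CPM, and Ret, the receptor of GDNF-family ligands, 50.4 and 20.7 against 14.6 and 5.27 CPM. In both WT pools each of these genes was above its level in both Ccr2-/- pools, which their choice for size on both days largely fixed. Timp3 was also among the genes at least 2-fold lower in Saa3-high than in Scara5-positive fibroblasts.

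**Figure D3:**
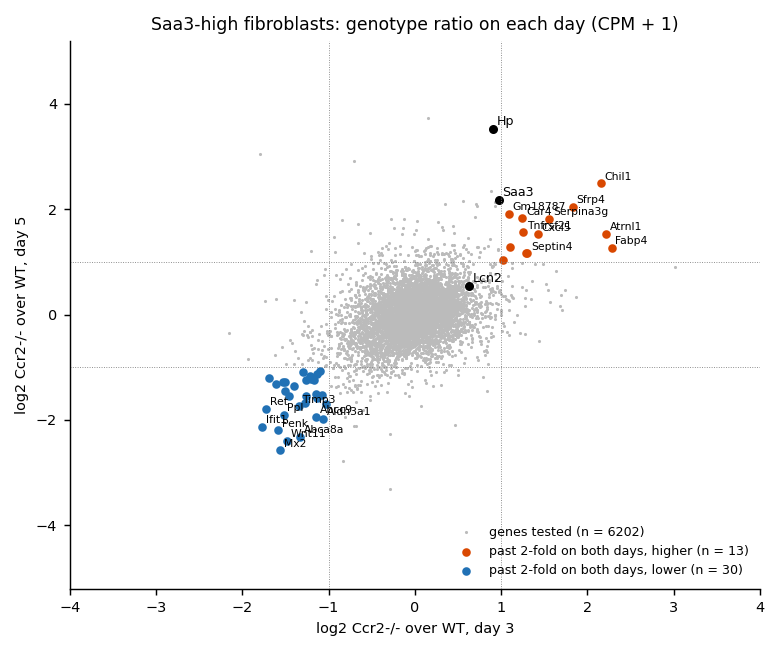
The log2 ratio of Ccr2-/- to WT in Saa3-high fibroblasts at day 3 (horizontal) and day 5 (vertical), each point a gene with at least 20 CPM in both pools of 1 genotype, on the log2(CPM + 1) scale. Orange and blue points are the 13 and 30 genes past 2-fold on both days, black points the 3 genes of the score, and 1 gene lies outside the axes.

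Among the acute-phase and defence genes, 8 of 15 passed the filter on level, a filter that genes high in a single genotype pass more easily. Of these 8, which include the 3 genes of the score, 7 were higher in Ccr2-/- on both days, with medians of 0.56 at day 3 and 1.28 at day 5, and 1, Chil1, was past 2-fold on both. Saa3 had ratios of 0.97 and 2.18 and Hp 0.91 and 3.52, while Lcn2 had 0.62 and 0.54. These 3 genes chose the cells, so their ratios are descriptions. Without them, 4 of 5 genes were higher on both days, with medians of 0.13 and 0.96. Steap4, a metalloreductase, had 569 and 194 CPM in WT against 576 and 594 in Ccr2-/-.

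Other chemokines did not pass the test. Cxcl1, another CXCR2 ligand, had 2949 and 2985 CPM in WT against 3332 and 2736 in Ccr2-/-, and Cxcl2 had 234, 249, 220 and 449 CPM. Among monocyte and eosinophil chemokines, Ccl11 (eotaxin) had 998 and 1071 CPM in WT against 2866 and 1608 in Ccr2-/-, and Ccl8 had 952, 540, 1460 and 1490 CPM. Ccl2, a ligand of the missing CCR2, had 2594 and 3176 CPM in WT against 4806 and 3092 in Ccr2-/-, and Ccl7 2789, 2436, 4225 and 2572 CPM. None of these was past 2-fold on both days, though Ccl11 was at day 3 and Ccl8 at day 5.

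Cytokines and their receptors did not pass the test. Il6 had 890 and 477 CPM in WT against 845 and 661 in Ccr2-/-, and Csf1, the macrophage growth factor, had 552, 484, 1104 and 639 CPM. Csf3, which encodes the neutrophil growth factor G-CSF, had 0 and 1.51 CPM in WT against 12.3 and 12.4 in Ccr2-/-, under the filter on level. Of 15 cytokine receptors over the filter, 10 were higher and 3 lower in Ccr2-/- on both days. The interleukin 1 receptor Il1r1 had 370 and 329 CPM in WT against 539 and 434 in Ccr2-/-, the interleukin 4 receptor chain Il4ra 214 and 174 against 301 and 380, and Il6st, the shared receptor of the interleukin 6 family, 1114 and 818 against 1578 and 1136. Il1rl1, the receptor of interleukin 33, was past 2-fold lower, with 89.9, 126, 28.7 and 50.2 CPM, but single cells held 73.9%, 63.2% and 87.1% of its reads in WT day 3, WT day 5 and Ccr2-/- day 3.

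All 11 early-response and heat-shock genes that passed the filter were lower in Ccr2-/- on both days. Their medians were -0.46 and -0.79, and 0 were past 2-fold on both. Of all 6202 genes compared, 48.1% were above 0 at day 3 and 53.2% at day 5. How many of them were lower on both days was not computed, so the count has no background beside it. Fos had 6143 and 6234 CPM in WT against 4660 and 3636 in Ccr2-/-, Egr1 had 2535 and 2900 against 1500 and 1485, and Jun 2828 and 3194 against 2146 and 1997. The edgeR adjusted p was 0.15 for Egr1, 0.33 for Fos and 0.35 for Jun.

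Interferon-response genes were lower on both days for 8 of the 13 that passed the filter and higher for 0, with medians of -0.63 and -0.37. Ifit1 and Cxcl10, a chemokine induced by interferon, were past 2-fold on both days. Cxcl10 had 66.5 and 66.6 CPM in WT against 23.5 and 22.3 in Ccr2-/-, with 55.8% of the WT day 5 reads in 1 cell, and its mean log2 ratio of -1.50 was 0.25 with the upper quartile of the score as the limit.

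Structural genes differed in both directions. Of 25 matrix and remodelling genes, 2 (Timp3 and Col15a1) were past 2-fold lower and 0 past 2-fold higher. The abundant Dcn had 16069 to 20511 CPM and Sparc 13104 to 15741 CPM. Timp1 had 2394 and 2243 CPM in WT against 4149 and 3229 in Ccr2-/-. In the adventitial-type list 7 of 13 genes were lower on both days, and Cd55, a complement regulator, had 102 and 153 CPM in WT against 45.3 and 53.3 in Ccr2-/-. In the complement list 6 of 9 were lower and 1, Cfb, was higher on both days. Retinoid genes had medians of 0.03 and 0.47, and Aldh1a3, a second retinoic acid synthesising enzyme, had 101, 115, 372 and 146 CPM. Preadipocyte and lipid genes had medians of -0.34 and -0.50, with 4 of 5 lower on both days and Fabp4 past 2-fold higher. Apoe, a lipid carrier, had 816 and 1160 CPM in WT against 779 and 397 in Ccr2-/-. NF-kB targets were divided, with 6 of 20 higher and 6 lower on both days, and Sod2, a mitochondrial superoxide dismutase, had the largest mean ratio among them, with 382 and 239 CPM in WT against 746 and 564 in Ccr2-/-. Hypoxia and glycolysis genes had medians of 0.11 and 0.44, type 2 genes 0.43 and 0.22, lymphoid chemokines -0.14 and 0.96, neutrophil chemokines 0.18 and 0.85 and the IL-6 family and colony-stimulating factors -0.07 and 0.47. The edgeR test called 0 genes of the 16 lists other than Cxcl5.

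**Figure D4:**
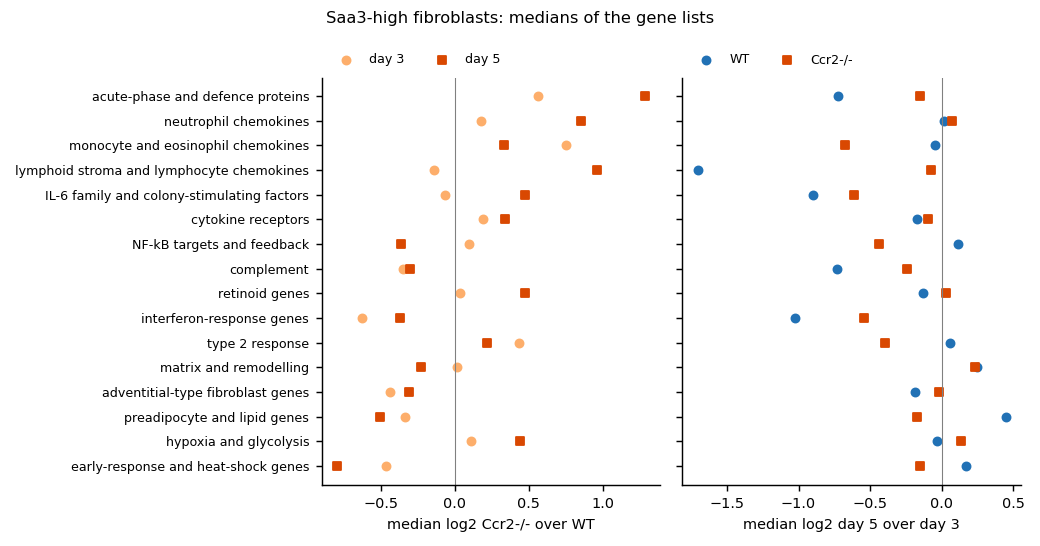
Median log2 ratio over the genes of each list that passed the filter on level, in Saa3-high fibroblasts. The left panel gives Ccr2-/- over WT at day 3 (circles) and day 5 (squares), and the right panel day 5 over day 3 in WT (circles) and Ccr2-/- (squares). The acute-phase list includes the 3 genes of the score, early-response genes lie left of 0 on both days, and interferon-response genes left of 0 in all 4 values.

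Between day 3 and day 5, interferon-response and complement genes were mostly lower at day 5 and matrix genes more often higher. The edgeR test, with genotype as a covariate, called 0 of 16545 genes (0%), with 1116 at an unadjusted p under 0.05 and a smallest adjusted p of 0.059. DESeq2 called 98. By size, 20 of 6172 genes (0.324%) were at least 2-fold higher and 12 (0.194%) at least 2-fold lower at day 5 in both genotypes. Without the cell with most reads of each gene the split was 16 and 20, and by the mean of cells 21 and 27. The 5 higher by most were Serpinb2, Lrrc15, Fibin, Tcim and Ccn4. Lrrc15, a membrane protein of activated fibroblasts, had 5.38 and 5.17 CPM at day 3 in WT and Ccr2-/- and 41.9 CPM in both at day 5 (edgeR log2 ratio 2.98, adjusted p = 0.07). Cthrc1, a collagen-associated secreted protein, had 184 and 116 CPM at day 3 and 399 and 262 CPM at day 5, and Thbs2, the matrix protein thrombospondin 2, 79.6 and 42.7 against 192 and 115 CPM. For Serpinb2, a plasminogen activator inhibitor, a single cell held 96.6% of the WT day 5 reads. Cthrc1 and Thbs2 were named after their values were seen.

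The 5 lower by most at day 5 were Irf7, CT868690.1, Ccl19, Mpeg1 and Ifi27l2a. Ccl19 had 320 and 411 CPM at day 3 in WT and Ccr2-/- and 63.0 and 123 CPM at day 5 (edgeR log2 ratio -2.04, adjusted p = 0.059). Irf7, a transcription factor of the interferon response, had 167 and 61.9 CPM at day 3 and 22.5 and 15.3 CPM at day 5, and Ifi27l2a, an interferon-induced gene, 350 and 248 against 71.9 and 74.95 CPM. Of 14 interferon-response genes, 10 were lower at day 5 in both genotypes and 0 higher. Of all 6172 genes compared between days, 47.8% were higher at day 5 in WT and 48.9% in Ccr2-/-. The share of all genes lower in both genotypes was not computed. C3, the central complement protein, had 2400 and 1824 CPM at day 3 and 972 and 385 CPM at day 5, and 8 of 9 complement genes were lower at day 5 in both genotypes. Of 25 matrix genes, 12 were higher and 3 lower in both, with medians of 0.24 in WT and 0.23 in Ccr2-/-. The medians were -0.90 and -0.61 over 3 genes of the IL-6 family and colony-stimulating factors. Mpeg1 is a gene of macrophages. The 7 monocyte and macrophage markers of the lists together had 63.6 and 33.9 CPM at day 3 and 50.9 and 53.7 CPM at day 5, and their part in the Mpeg1 values was not tested.

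**Figure D5:**
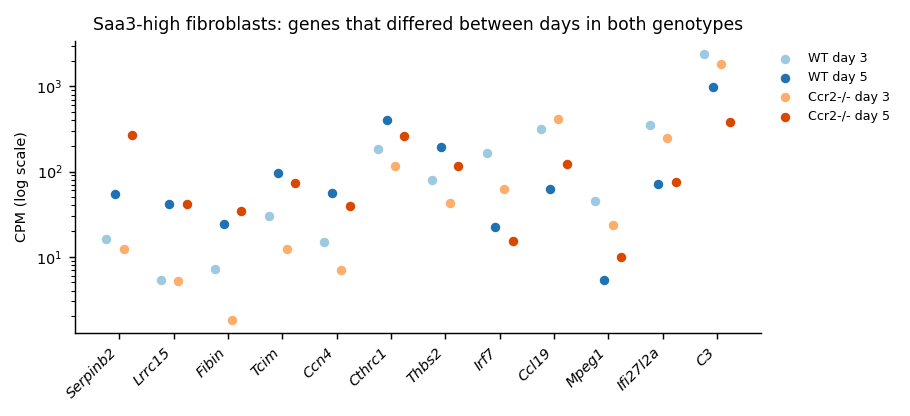
CPM of summed reads, on a log axis, in Saa3-high fibroblasts of the 4 pools, for 7 genes higher and 5 lower at day 5 in both genotypes. Each point is 1 pool, and in each gene both day 5 pools lie on the same side of their own genotype at day 3.

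Markers of other cell types were low throughout, where the rule itself kept cartilage and cell division genes low and collagen genes high. The summed CPM was 0.135 to 0.967 for 4 T cell markers, 26.2 to 54.0 for 4 dendritic cell markers, 4.47 to 7.70 for 4 markers of blood endothelium, 2.52 to 8.79 for 4 of lymphatic endothelium, 32.0 to 53.8 for 5 of keratinocytes, 40.2 to 111 for 5 of pericytes and smooth muscle, 17.0 to 29.4 for 5 of cartilage, 7.73 to 33.9 for 4 of mast cells and basophils, 0.168 to 2.51 for 3 of Schwann cells, 3.19 to 5.00 for 2 of adipocytes and 23.3 to 40.8 for 7 of cell division. The 6 fibroblast markers had 62631 to 78966 CPM. The call of Cxcl5 was kept where cells with 500 CPM or more of 5 leukocyte genes were left out (edgeR adjusted p = 0.0341).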

How the data were processed

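TAS-Seq libraries of ear skin cells were deposited as 2 tables of counts, in which the authors gave reads per gene and barcode and reads per hashtag and barcode. Per the labels and the study's methods, reads were trimmed with cutadapt, aligned to GRCm38.p6 transcripts with Bowtie2, and barcodes above the knee of the read curve were kept. No molecular identifiers were counted. The 9 further hashtag columns were not used. Barcodes with over 20% mitochondrial reads or under 200 genes were left out. A barcode went to the hashtag with the highest count over its column total, if at least 3 times the next. Depth was 3117 to 667774 reads per Saa3-high fibroblast in the 4 pools, and the small WT pools limit the precision.

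Reads were summed per pool and tested with edgeR 4.0.16 (quasi-likelihood, TMM, filterByExpr, Benjamini-Hochberg, day plus genotype) in R 4.3.3. Ratios used a pseudocount of 1 CPM. DESeq2 1.42.0 and other settings served as alternatives, as the closing section gives. On simulated data for the genotype comparison with 16545 genes, 49% of 200 genes changed 4-fold were recovered, with 2 false calls. These data had no day effect and a common dispersion for all genes, taken from the same fit. They therefore give no error rate for the fit to the real data. Gene lists, members and tests were chosen with earlier results of these data known. Genes were named as the 5 markers, the 10 largest ratios each way past 2-fold on both days, the 5 largest each way against Scara5-positive cells, and, per list, the most expressed and those past 2-fold on both days. Further list genes given for their role, and the 5 largest ratios each way between days, were chosen after their values were seen. The smallest p over 4 pools is 0.33.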

Additional observations from a re-analysis of the deposited data

Results flagged for a closer look

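Of the genes named or listed, 3 had ratios between genotypes that went in opposite directions on the 2 days by more than 1.5-fold each. These differences between days were not tested, as each was 1 pool against 1 pool. Cxcl9, a chemokine induced by interferon gamma, had a log2 ratio of Ccr2-/- to WT of -1.80 at day 3 and 3.05 at day 5, from 124 and 35.1 CPM at day 3 and 3.70 and 38.0 CPM at day 5. Reg1 had -0.71 at day 3 and 2.91 at day 5, and its WT day 5 level of 46.1 CPM rested on 15 cells with a read. Acta2, the smooth muscle actin of contractile cells, had 0.72 and -0.80.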

How the results depend on the processing

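No paired analysis was possible because the labels give no replicate numbers, and a fit without 1 pool has no residual degrees of freedom, so leaving out pools was not run and the values of each day stand in the report. The difference in share between genotypes kept its direction in all 8 alternatives (10.2 to 18.9 points). The count of genes called between genotypes (1) was 0 at a hashtag ratio of 10, with the upper quartile of the score, with each pool's own median and without the gate on Scara5. It was 13 with library sizes only, 124 by DESeq2, 225 with barcodes thinned to 20000 reads and 352 without a filter on low counts. Between days (0) it was 3 under the leukocyte limit, 6 with at least 10 hashtag reads, 6 at a mitochondrial limit of 10%, 13 with library sizes only, 74 after thinning, 98 by DESeq2 and 241 without a filter. Why was not tested. The 43 genes past 2-fold between genotypes were 66 at a hashtag ratio of 10, 136 after thinning, 83 with the upper quartile, 92 by the mean of cells, 20 with a pseudocount of 10 CPM and 120 at a minimum of 5 CPM. The 32 between days were 63, 53, 50, 21 without the gate on Scara5, 17 and 99 under the hashtag ratio, thinning, the upper quartile, the Scara5 gate, the pseudocount and the minimum. The ratio of Cxcl10 turned to 0.25 with the upper quartile, and that of Il1rl1 to 0.39 with the upper quartile and 0.54 after thinning. Of 858 alternative values of 78 named genes, 783 kept their direction and call. Leaving out the cell with most reads of each gene, chosen after seeing the data, gave 52 genes, 26 of them among the 43.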

Other observations

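The 89 Saa3-high fibroblasts that the hashtags put in no pool were left out of all comparisons. They had 6581 CPM of Saa3, 190 of Lcn2 and 77.5 of Hp, with 332 CPM of Ccl19, 49.4 of Aldh1a2 and 2780 of Cxcl5.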
